A study of Mus musculus with 2 samples.

Results

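Genes of blood coagulation, of the complement system and of their inhibitors were examined in the liver of mice depleted of n-3 polyunsaturated fatty acids. The set was a list of 39 genes, 24 of coagulation and 15 of complement, and a gene was measured where the array's annotation gave at least 1 probe set with that single gene symbol. This held for 37 genes, 23 of coagulation and 14 of complement, out of 18193 genes named in this way. Cpb2 and C3 lacked such a probe set and were not analysed here. The 37 genes had 52 probe sets, and the one of highest mean log2 signal stands for its gene, with the other 15 probe sets as a check.

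All animals were male C57Bl/6J mice, 9 weeks old before a week of acclimatisation, and the feeding lasted 112 days. Until the last 10 days both groups ate a diet low in n-3 fatty acids, made with sunflower oil rather than soybean oil. Its n-6 to n-3 ratio was 127.2, against 6.9 in the control diet. Then the DEF/FOS group stayed on the depleted diet and drank fructooligosaccharides, a fermentable fibre, at 0.25 g per day, while the DEF/CT group was put back on the control diet. Both the oil and the fibre therefore differ between the groups and cannot be told apart. The treatment text gives 8 mice for each group; RNA was pooled in equal amounts within a group, from 4 to 8 mice per the extraction text, and each pool was measured on 1 array. A group is thus 1 measurement, no difference between the pools has a replicate check, and the number of arrays limits the precision. The groups without either change in the last 10 days were not analysed here.

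Most plasma proteins of both systems are made by hepatocytes and secreted as inactive precursors. Coagulation is a chain of proteases, several of which need vitamin K for their modification, that ends in thrombin, which turns fibrinogen into fibrin; serpins and protein C hold it back, and plasmin dissolves the clot. Complement is started by antibodies, by lectins such as the mannose-binding lectins, or directly on surfaces, and its convertases lead to a terminal complex of C5 to C9 that makes pores in membranes. Kallikrein, C1 inhibitor and vitronectin belong to both systems or sit between them.

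The promoter sequences of the genes on which the results turn are shown first. They are F11 and its neighbour Klkb1, C8b and its neighbour C8a, and, as genes with almost equal signals in both pools, the 3 fibrinogen genes. Each is the 250 bases upstream of an annotated start, 5′ to 3′, from RefSeq on build GRCm38.p6. Capitals mark matches, on either strand, to TATAAA, to GTTAAT (part of the site of the liver factor HNF1), to TTGCNNCAA (a C/EBP motif), to TTCNNNGAA (a STAT motif) and to CTGGGAA (a motif known from interleukin-6-responsive fibrinogen genes).
F11 (chr8:45262032-45262281, minus strand): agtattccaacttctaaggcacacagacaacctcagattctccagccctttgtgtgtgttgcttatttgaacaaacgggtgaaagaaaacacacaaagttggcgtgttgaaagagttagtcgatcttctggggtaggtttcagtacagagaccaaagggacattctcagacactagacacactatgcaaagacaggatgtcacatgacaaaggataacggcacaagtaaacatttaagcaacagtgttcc
Klkb1 (chr8:45294836-45295085, minus strand): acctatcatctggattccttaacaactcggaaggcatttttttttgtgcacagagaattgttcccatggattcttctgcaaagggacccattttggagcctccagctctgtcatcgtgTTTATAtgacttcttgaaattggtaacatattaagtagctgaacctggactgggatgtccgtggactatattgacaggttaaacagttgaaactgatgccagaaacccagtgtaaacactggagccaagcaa
C8b (chr4:104766067-104766316, plus strand): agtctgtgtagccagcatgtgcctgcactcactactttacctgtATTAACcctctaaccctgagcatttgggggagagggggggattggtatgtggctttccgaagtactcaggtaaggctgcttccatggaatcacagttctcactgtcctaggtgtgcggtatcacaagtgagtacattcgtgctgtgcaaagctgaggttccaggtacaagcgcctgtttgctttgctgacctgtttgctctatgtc
C8a (chr4:104876399-104876648, minus strand): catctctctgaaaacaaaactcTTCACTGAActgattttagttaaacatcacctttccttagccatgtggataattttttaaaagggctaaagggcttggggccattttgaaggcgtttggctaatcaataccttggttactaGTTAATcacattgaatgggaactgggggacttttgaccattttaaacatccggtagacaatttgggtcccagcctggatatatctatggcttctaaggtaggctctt
Fga (chr3:83025903-83026152, plus strand): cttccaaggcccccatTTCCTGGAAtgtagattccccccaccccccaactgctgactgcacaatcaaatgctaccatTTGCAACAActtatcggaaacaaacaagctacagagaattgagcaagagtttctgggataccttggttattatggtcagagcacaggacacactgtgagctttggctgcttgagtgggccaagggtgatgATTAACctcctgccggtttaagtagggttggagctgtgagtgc
Fgb (chr3:83049864-83050113, minus strand): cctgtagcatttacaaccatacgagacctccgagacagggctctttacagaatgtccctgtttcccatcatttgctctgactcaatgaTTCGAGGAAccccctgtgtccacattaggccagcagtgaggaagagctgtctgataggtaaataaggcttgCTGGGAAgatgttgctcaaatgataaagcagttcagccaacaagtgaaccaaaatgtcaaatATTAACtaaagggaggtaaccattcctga
Fgg (chr3:83007474-83007723, plus strand): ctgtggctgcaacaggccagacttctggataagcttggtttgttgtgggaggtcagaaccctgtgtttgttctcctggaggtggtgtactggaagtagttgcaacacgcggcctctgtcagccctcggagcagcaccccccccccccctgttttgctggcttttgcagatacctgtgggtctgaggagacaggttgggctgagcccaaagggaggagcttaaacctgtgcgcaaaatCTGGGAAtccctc

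The F11 window held none of these letters and the Klkb1 window only a TATAAA match on the opposite strand. C8b had a GTTAAT match starting 206 bases upstream, and C8a had one at 107 bases together with a TTCNNNGAA match, TTCACTGAA. Fga and Fgb each had GTTAAT close to the start, at 43 and 29 bases upstream, while Fgg had CTGGGAA at 13 bases and Fgb the same letters at 91 bases. Of the listed genes, 31 had a window in the table, with 33 windows between them. GTTAAT was present in 8 of these 33 windows (24.2%), 4 of the 21 of coagulation and 4 of the 12 of complement genes, and in 6.43% of all 32851 windows. TTCNNNGAA was present in 6 windows (18.2%), against 7.02% of all, and CTGGGAA in 5 (15.2%), against 9.10%. TTGCNNCAA was found in 2, those of Fga and C6, against 1.74% of all, and TATAAA in 4 (12.1%), against 12.4%. In the windows of F9 and Masp2, which are not printed, the stretch TTCCCAGAA was counted for both TTCNNNGAA and CTGGGAA, so these counts are not independent. No match in the printed windows overlaps another, and a match is not a measured binding site.

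The signals are MAS5 values on a linear scale in arbitrary units, and levels of different genes are not comparable because each probe set has its own response. Where 2 signals are given for a gene, DEF/FOS comes first and DEF/CT second. Differences are log2 of the DEF/FOS signal minus log2 of the DEF/CT signal, centred on the median over probe sets above a signal floor of 19.4. All 37 genes lay above the floor in both pools. The 11163 genes above the floor had a median difference of 0.00, and 45101 probe sets were deposited per array. As a stand-in for technical error, the SD among probe sets for one gene was 0.46 (log2) at signals from the floor to 100, 0.29 at 100 to 1000, 0.16 at 1000 to 5000 over 210 genes, and 0.06 above 5000, where only 16 genes had several probe sets. This SD holds neither animal nor array variation. Tissue checks were as follows. The 10 measured hepatocyte markers had a median difference of -0.04 and ran from -0.35 to 0.25, with none past 1.5-fold, and their summed signal was 63908 in DEF/FOS and 67800 in DEF/CT. The skeletal muscle markers had a summed signal of 157 and 2768, with 11 of 11 above the floor lower in the DEF/FOS pool, and the part of this muscle RNA in the differences below was not tested. The markers of stellate cells, platelets and bile ducts had medians of -0.12 over 6 genes, 0.23 over 3 and 0.51 over 3.

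Coagulation and complement genes were slightly lower in the DEF/FOS pool almost throughout. Of the 37 genes, 33 (89.2%) had a difference below 0, against 50.0% of all genes above the floor, and the median was -0.16. The differences were small: 3 genes were lower by at least 1.5-fold, F11, C8b and Masp1, and 0 were higher by that much. That is 8.11% of the members, close to the background of 7.82% of all genes lower and 6.75% higher by 1.5-fold. This background owes much to genes with signals from the floor to 100. Of those 14.5% were lower by 1.5-fold, and only 2 members lie there. Above the 75th percentile of signal, a level of 84.3 that 35 of the 37 genes reached, the background was 2.77% lower and 4.01% higher, and 46.4% of genes were below 0. All 3 genes lie above that level, but so small a count is not read as a result about the set. Beyond the SD between probe sets in their range of signal lay 23 of 37 members (62.2%), against 34.1% of all genes above the floor. Beyond 2 such SDs lay 10 (27.0%), against 9.34%. These shares are not matched for signal. Of all genes, 4917 lay at signals from the floor to 100 and 5239 at 100 to 1000, but only 2 and 6 members. At signals of 1000 to 5000, 14 of 19 members were lower by more than 1 SD, against 23.6% of all 883 genes there. Fewer hepatocytes in the tissue and less RNA per hepatocyte cannot be told apart in such a pool.

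**Figure D1:**
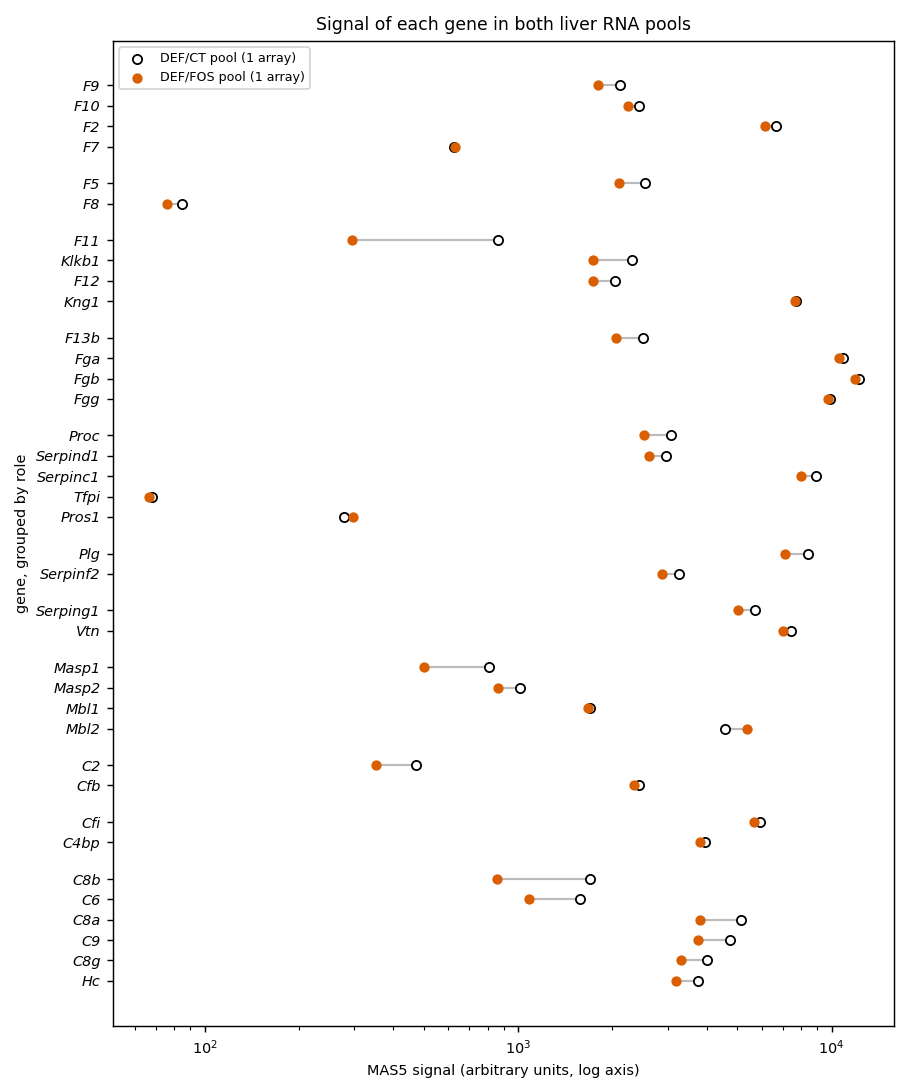
MAS5 signal (log axis) of each of the 37 genes in the DEF/FOS pool (filled) and the DEF/CT pool (open), 1 array each, grouped by role; the line joins both values of a gene. Before centring, the filled point lies to the left in 34 genes, with the widest gaps at F11 (295 against 866) and C8b (859 against 1699), while Mbl2 lies to the right (5357 against 4571).

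The contact phase, the surface-triggered start of coagulation, held the gene with the largest difference. F11, factor XI, the precursor of the protease that activates factor IX, had a signal of 295 in DEF/FOS and 866 in DEF/CT. It was 2.90-fold lower, a difference of -1.54, and stood 62 from the bottom of the 11163 genes by difference and 8 from the bottom of the 6751 genes above the 75th percentile. It was the only 1 of the 37 genes past 2-fold, where the background was 2.19% of all genes and 0.400% of those above the 75th percentile. F11 has a single probe set, so no other probe set can check it. Klkb1, plasma prekallikrein, which cleaves kininogen and activates factor XII, had signals of 1732 and 2306, a difference of -0.40. F12, which starts the contact phase, had 1740 and 2041, a difference of -0.22. Kng1, the kininogen that carries prekallikrein and factor XI, had 7635 and 7678. Its difference was 0.01, and -0.04 in its second probe set, so the carrier had almost equal signals in both pools where all its partner proteases were lower.

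The vitamin K-dependent proteases of the main chain differed little. F9 had signals of 1801 and 2110, a difference of -0.21. F2, prothrombin, had 6130 and 6661, a difference of -0.11. F7, which starts coagulation together with tissue factor, had 630.5 and 626.4, a difference of 0.02 that turned below 0 after quantile normalization. F10, where the intrinsic and extrinsic routes meet, had 2239 and 2439 and a difference of -0.11, with -0.26 and -0.47 in its other probe sets. All of these but F7 were thus lower in the DEF/FOS pool, by less than 1.5-fold.

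The cofactors speed the proteases up. F5 had signals of 2095 and 2545, a difference of -0.27, and its second probe set gave -0.25. F8, the cofactor of factor IX, which is made mainly by endothelial cells, had 75.7 and 85.0 and a difference of -0.15, less than the SD between probe sets at that signal. Beside it, 10 markers of sinusoidal endothelium had a median of -0.08, from -0.22 to 0.25, with none past 1.5-fold and a summed signal of 2905 and 3013.

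Fibrinogen signals were nearly the same in both pools, but they are so high that they may be compressed. Fga had signals of 10540 and 10902, Fgb 11875 and 12228, and Fgg 9729 and 9876. Their differences were -0.03, -0.03 and -0.01, and those of Fgb and Fgg turned above 0 after quantile normalization. These genes encode the chains of 1 protein and lie side by side on chromosome 3. F13b, the carrier subunit of the factor that crosslinks fibrin, had 2047 and 2496 and a difference of -0.27. Signals above 5000 varied less than others: over the 124 genes in that range the SD of the differences was 0.19, against 0.34 for the 883 genes at 1000 to 5000, and 64.5% of the 124 were below 0.

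Most inhibitors and the genes of clot breakdown were lower by similar small amounts. Proc, the protein C that cleaves factors V and VIII, had signals of 2520 and 3076, a difference of -0.27. Serpinc1, antithrombin, had 7976 and 8903, a difference of -0.14, and Serpind1, heparin cofactor II, 2614 and 2961, a difference of -0.16. Pros1, the cofactor of protein C, went the other way, at 298.2 and 279.1 with a difference of 0.11, within the SD between probe sets. Tfpi, the inhibitor of the tissue factor route, had 66.3 and 67.9 and a difference of -0.02, but from -0.11 to -0.51 in its 3 other probe sets. Plg, plasminogen, had 7114 and 8396, a difference of -0.22, and Serpinf2, the inhibitor of plasmin, 2888 and 3270, a difference of -0.16. Serping1, the C1 inhibitor, which also blocks kallikrein, had 5017 and 5706, a difference of -0.17. Vtn, vitronectin, which binds both a plasminogen activator inhibitor and the terminal complement complex, had 7013 and 7435; its difference was -0.07, and -0.21 in its second probe set.

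**Figure D2:**
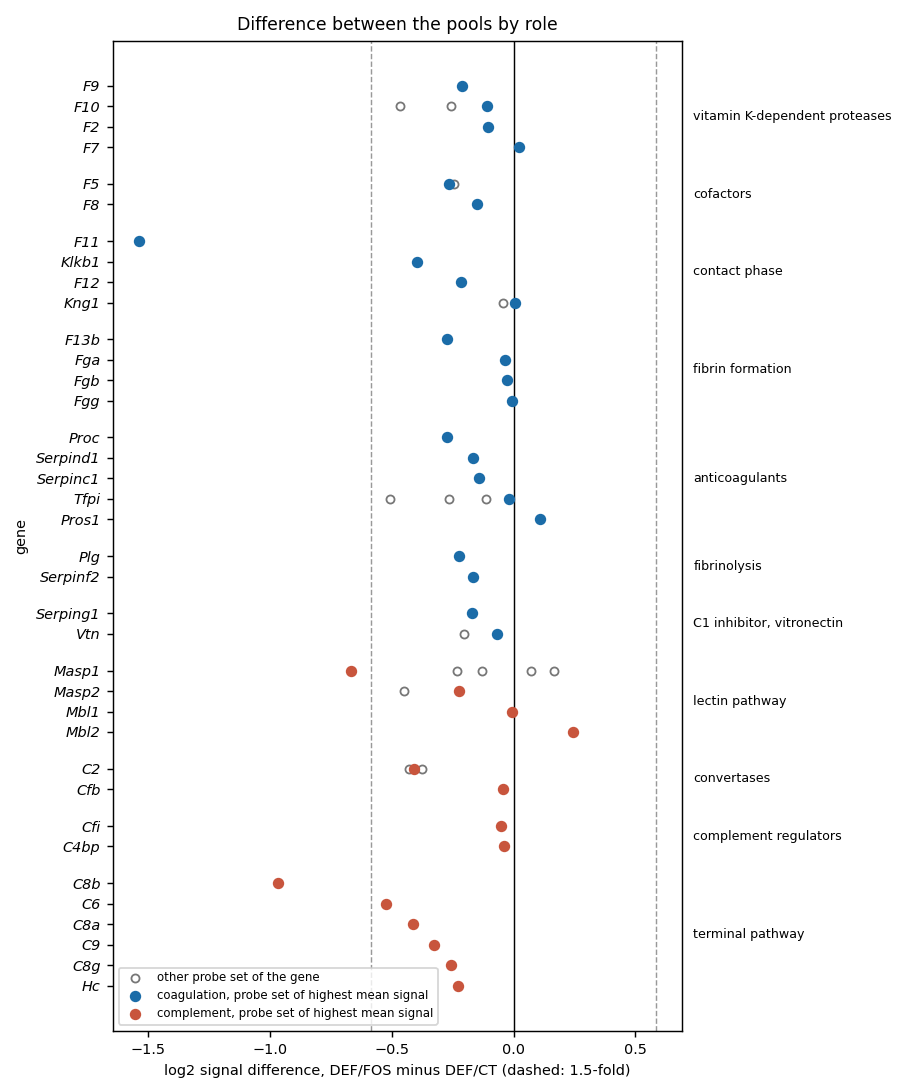
Log2 difference between the pools (DEF/FOS minus DEF/CT) for each gene by role, with filled points for the probe set of highest mean signal and open points for the gene's other probe sets; dashed lines mark 1.5-fold. F11 at -1.54 and C8b at -0.97 stand farthest to the left, all 6 terminal complement genes lie below 0, and the probe sets of Masp1 spread from -0.67 to 0.17.

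In complement, the terminal pathway was lower in the DEF/FOS pool in all 6 measured genes, with a median of -0.37. C8b, a chain of the component that anchors the pore in the membrane, had a signal of 859 in DEF/FOS and 1699 in DEF/CT. It was 1.96-fold lower, a difference of -0.97, with a single probe set, and stood 30 from the bottom of the genes above the 75th percentile. C6 had 1082 and 1571, a difference of -0.52. C8a, the partner chain of C8b, had 3819 and 5137, a difference of -0.41. These 3 genes showed the largest differences of the terminal pathway, and all 6 were lower by more than the SD of 0.16 between probe sets in their range of signal, as were 23.6% of all 883 genes at 1000 to 5000. C9, whose copies form the pore, had 3748 and 4756, a difference of -0.33. C8g, the third chain of C8 and a lipocalin, had 3314 and 4004, a difference of -0.26. Hc, the mouse gene of C5, had 3181 and 3760, a difference of -0.23.

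The lectin pathway was mixed. Mbl2, a mannose-binding lectin, was the complement gene with a higher signal in the DEF/FOS pool, at 5357 against 4571, a difference of 0.24. Mbl1, its relative, had almost equal signals of 1676 and 1700 and a difference of -0.01. Masp1, a protease bound to these lectins, had 501.9 and 806.5 by its brightest probe set, which made it 1.59-fold lower with a difference of -0.67. Its 4 other probe sets gave 0.07, -0.23, 0.17 and -0.13, so the call rests on 1 of 5 probe sets, and over all of them the median was -0.13. The gene is known to give several proteins by alternative splicing, and which of them each probe set reads was not tested. Masp2, the protease that cleaves C4 and C2, had 862 and 1016, a difference of -0.22, with -0.45 in its second probe set.

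Among the convertase genes, C2 had signals of 351.7 and 471.4, a difference of -0.41, and its other probe sets gave -0.37 and -0.43. All probe sets of C2 were thus lower by nearly the same amount. Cfb, its counterpart in the alternative pathway and its neighbour on chromosome 17, had 2346 and 2440 and a difference of -0.04. The regulators also had nearly equal signals. C4bp, which helps to inactivate C4, had 3814 and 3955, a difference of -0.04 that turned above 0 after quantile normalization. Cfi, the protease that cleaves C3b and C4b, had 5659 and 5927, a difference of -0.05.

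Compared as groups, coagulation had 20 of 23 genes (87.0%) below 0 with a median of -0.15. Complement had 13 of 14 (92.9%) with a median of -0.24, a gap of 0.09. Below 0 were 50.0% of all genes above the floor, 46.4% of those above the 75th percentile and 64.5% of those above 5000. In coagulation 1 gene (4.35%) was lower by 1.5-fold, and in complement 2 of 14 (14.3%). The background was 7.82% of all genes above the floor and 2.77% of those above the 75th percentile. The 2 complement genes were C8b and Masp1, and the call of Masp1 rests on 1 of its 5 probe sets. Among coagulation genes 5 of 23 were lower by 0.25 or more, and among complement genes 7 of 14, where the background was 23.9% of all genes above the floor and 16.6% of those at 1000 to 5000. This cut was not among those planned, and the counts depend on it. Genes such as F5 (-0.27) and C8g (-0.26) lay just past it, and Plg (-0.22) and Hc (-0.23) just short of it. The gap between the medians ran from 0.08 to 0.11 with any 1 gene left out. The ranges of signal differed: coagulation had 9 genes above 5000, where the median was -0.07, and complement had 1. At signals of 1000 to 5000, a range set after the data had been seen, the medians were -0.22 over 9 coagulation genes and -0.24 over 10 complement genes, a gap of 0.03. In that range 18 of the 19 genes were below 0, against 48.7% of all 883 genes there, whose median was 0.00. With 1 array per group no test of the difference between the systems was possible.

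**Figure D3:**
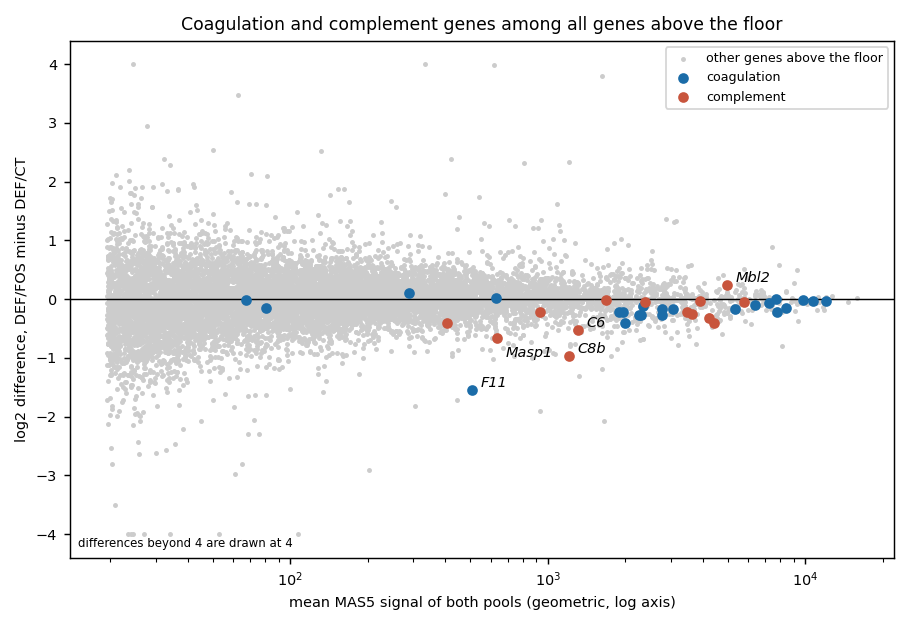
Log2 difference between the pools (DEF/FOS minus DEF/CT) against the mean MAS5 signal (log axis) for the 11163 genes above the floor, in grey, with coagulation genes in blue and complement genes in red. The coloured points form a band just below 0 with a median of -0.16, and F11, C8b, C6 and Masp1 lie beneath it, while differences at low signal scatter more widely.

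Genes that lie next to each other on a chromosome did not always share 1 size of difference. The fibrinogen genes on chromosome 3 had nearly equal values, -0.01 for Fgg, -0.03 for Fga and -0.03 for Fgb. Other runs were less even. On chromosome 8, F11 and Klkb1 are adjacent genes of related sequence, with -1.54 and -0.40. The next gene, Cyp4v3, a fatty acid hydroxylase named after its value was seen, had signals of 1788 and 2910 and a difference of -0.69, so all 3 were lower. On the far side of F11, the melatonin receptor gene Mtnr1a had -0.16 at signals of 47.2 and 53.1. F7, F10 and Proz, another run on chromosome 8, had 0.02, -0.11 and -0.23. The other probe sets of F10 gave -0.26 and -0.47, so this run is not clearly uneven. C8b and C8a, neighbours on chromosome 4, had -0.97 and -0.41, and Cfb and C2 had -0.04 and -0.41.

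Of 24 further coagulation genes 18 were measured above the floor, with a median of -0.08. Below 0 were 11 of them (61.1%), against 50.0% of all genes above the floor. By 1.5-fold 0 were lower and 2 higher (11.1%), against 7.82% and 6.75% of all genes. The 2 were Fgl1, a fibrinogen-like protein of hepatocytes, at 2256 against 1268 (1.80-fold), and Thbd, the endothelial thrombin receptor thrombomodulin, at 62.7 against 39.1 (1.62-fold). Each has a single probe set. The lowest differences were those of the protease inhibitors A2m, at 20.8 and 30.5, close to the floor, with -0.54, and Mug1, at 5277 and 7133 with -0.42. Vkorc1, the enzyme that recycles vitamin K, had almost equal signals, 3310 and 3298, with a difference of 0.02.

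Of 25 further complement genes 17 were measured above the floor, with 10 below 0 (58.8%, against 50.0% of all genes) and a median of -0.07. By 1.5-fold 0 were lower and 1 higher (5.88%, against 6.75% of all genes). The 1 gene was Cd55, a membrane inhibitor of the convertases, at 72.6 against 38.8 (1.89-fold), and its 3 probe sets ran from 0.51 to 0.92. Colec10, a collectin, had 183.3 and 259.3, a difference of -0.49, and Cfhr2, a factor H-related protein, 1229 and 1678, a difference of -0.44. C1qa, made by macrophages, was higher, at 515 against 363, a difference of 0.52, while C1qb and C1qc had -0.03 and -0.07. Beside it, 8 of the 9 Kupffer cell markers, C1qa among them, were above 0, with a median of 0.23, a summed signal of 3925 and 3250, and Marco past 1.5-fold; their part in these values was not tested.

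The 13 further plasma protein genes had a median of -0.04, from -0.27 to 0.22, with none past 1.5-fold. Below 0 were 10 of them (76.9%), against 50.0% of all genes above the floor and 64.5% of all genes above 5000. Of the 13 genes, 8 had signals above 5000, where their median was -0.04 and that of the coagulation genes -0.07. The 5 at 1000 to 5000 had a median of -0.13. The 16 acute phase genes had a median of 0.05, with 10 above 0 and 6 below 0 (37.5%, against 50.0% of all genes). Only Lcn2 was past 1.5-fold (6.25% of the list, against 6.75% of all genes higher), at 119.6 against 20.9. Among 15 regulators of liver genes the median was -0.16, with 2 higher by 1.5-fold (13.3%, against 6.75% of all genes) and 0 lower. These were the C/EBP factors Cebpb, at 919 against 534 with differences of 0.80 and 0.87 in its 2 probe sets, and Cebpd, at 123.5 against 78.9. Cebpa, another C/EBP factor of the list, went the other way, at 1265 and 1541 with -0.27. Hnf4a, a main regulator of hepatocyte genes including clotting factors, had 3233 and 2745, and its 4 probe sets lay between 0.25 and 0.53. The lowest differences were those of Ppara, the fatty acid receptor, at 963 and 1300 with -0.42, and of the liver factor Foxa1, at 368.7 and 494.8 with -0.41. Of the relatives of Foxa1, Foxa2 had -0.18, while Foxa3 was higher, at 373.3 and 287.1 with 0.39. Of the regulators 9 of 15 were below 0 (60.0%, against 50.0% of all genes).

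**Figure D4:**
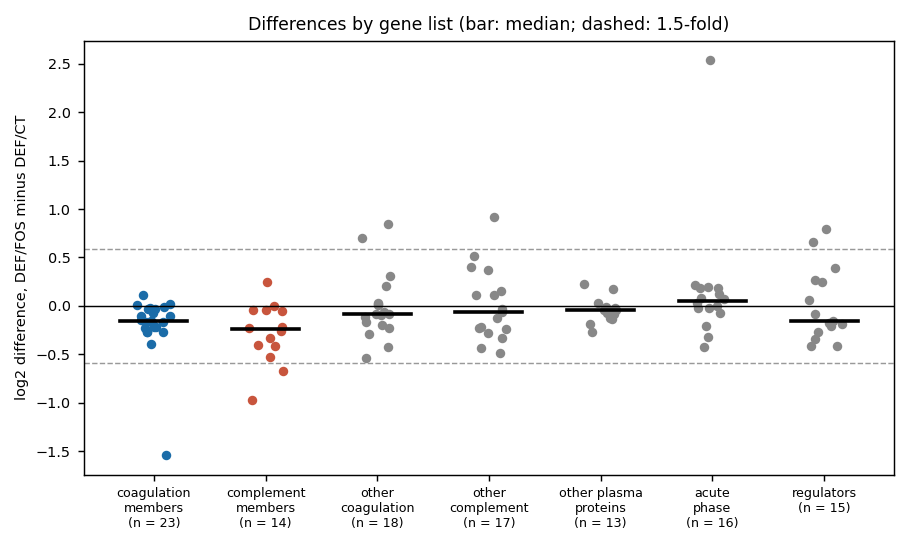
Log2 difference between the pools (DEF/FOS minus DEF/CT) of each gene in 7 lists, with the list's median as a bar and 1.5-fold as dashed lines. The medians are -0.15 for coagulation, -0.24 for complement, -0.08 and -0.07 for the other genes of these pathways, -0.04 for other plasma proteins, 0.05 for acute phase genes and -0.16 for the regulators, which span -0.42 to 0.80.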

How the data were processed

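Liver RNA pools were hybridised to Affymetrix expression arrays, 1 array per group. The deposited values are MAS5 signal intensities made by the authors with GCOS and MAS5, per the submitters' processing notes, which give no version. Both arrays had a trimmed mean of 100.00 (2% cut from either end), so the values had been scaled. They hold no detection calls, and the number of arrays limits the precision. MAS5 treats each array by itself, and the highest signals may be compressed.

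Of 45101 probe sets, 64 were controls, 34958 had 1 gene symbol, 932 had several and were not used, and 9160 were unlisted. The symbols of all 37 genes matched a RefSeq table of GRCm38.p6 through Entrez identifiers. Log2 differences without an offset were centred by subtracting the median of -0.01. The floor is the median of the mean log2 signal over probe sets that are not controls. Without replicates no test was made, and genes were counted at 1.5-fold. All genes of the set are named; of other lists, those past 1.5-fold and at most 4 with the largest differences. Vkorc1, Hnf4a, Cebpa, Foxa2, C1qb, C1qc, Proz, Mtnr1a and Cyp4v3 were named outside this rule, after their values were seen. The genes, lists and ranges of signal were chosen with earlier results of these data known. The calculations used Python 3.11.15, numpy 2.4.6 and pandas 2.3.3 and were tested on simulated data. Alternatives covered scaling, floor, offset, centring and choice of probe sets.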

Additional observations from a re-analysis of the deposited data

How the results depend on the processing

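The median of all coagulation and complement genes lay between -0.18 and -0.16 over 8 settings, and between 30 and 34 genes were below 0. Quantile normalization changed the sign of 5 genes near 0 (F7, Fgb, Fgg, Vtn and C4bp), the median over probe sets and the lack of centring that of Kng1. F11 and C8b stayed below 0 in each of the 8 settings that gave them a value. Each has a single probe set above every floor, so settings for the floor or the choice of probe sets could not move them. Quantile normalization, the offset and the lack of centring gave -1.57, -1.45 and -1.55 for F11. For C8b they gave -0.99, -0.95 and -0.98. With the median over probe sets 1 complement gene was lower by 1.5-fold in place of 2, since Masp1 then differed by -0.13. At signals of 1000 to 5000 only, an alternative chosen after seeing the data, the median of coagulation was -0.22. Moving Serping1 and Vtn to complement left coagulation above complement, as did all other settings, with a gap from 0.03 to 0.10. A floor at the 75th percentile left out F8 and Tfpi. No paired analysis was possible because each group has 1 array, and no replicate could be left out. Differences below the SD between probe sets cannot be resolved, and 14 of the 37 genes lie within it. The other 23 are not thereby shown to be resolved, because this SD holds neither animal nor array variation.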
